A study of Mus musculus with 15 samples.

Results

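Mitochondrial ribosomal proteins were measured on the array as 127 probe sets of 22626 tested, and these 127 probe sets belong to 74 genes, of 12393 genes read by a probe set with a single symbol. They were chosen by name, as all probe sets with a single gene symbol that starts with Mrpl (large subunit) or Mrps (small subunit) and goes on with a digit. No measured value enters this rule, but it was set with earlier results of these data known. By the current nomenclature 49 of the genes encode proteins of the large subunit and 24 of the small subunit, Mrps30 and Mrps18a counting as large, while Mrps36 is no longer regarded as a subunit. RefSeq lists 78 protein-coding mouse genes with such a symbol, and Mrpl30, Mrpl53, Mrps10 and Mrps27 were not among those read by a probe set with a single symbol. A probe set is a group of short probes against 1 transcript; 41 of the genes have 1 and 33 have more, up to 7 for Mrpl15.

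The mitochondrial ribosome, or mitoribosome, translates the small set of messages encoded by mitochondrial DNA, all of which specify subunits of the oxidative phosphorylation complexes. Its ribosomal RNA comes from mitochondrial DNA, but all of its proteins are encoded in the nucleus, made in the cytosol and imported. The large subunit joins amino acids and carries a flexible stalk that recruits the translation factors, the small subunit decodes the message, and many of the proteins have a counterpart in bacterial ribosomes while others are particular to mitochondria. In skeletal muscle this machinery is needed for the respiratory chain that supplies contraction.

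The samples were gastrocnemius muscles (calf) of 15 male C57BL/6NHsd mice, with 1 MOE430A array per mouse. The young group (n = 5) was 5 months old and the old group (n = 5) 25 months old, both on the normal diet of 84 kcal per week, and the old CR group (n = 5) was 25 months old on life-long caloric restriction, with a caloric intake that differed by 26% from that of the normal diet. All mice were housed singly. The replicate numbers of the labels are 1 to 5 in the young and old mice and 2, 3, 5, 6 and 7 in the old CR mice, and values below follow that order. Old was compared with young for age, old CR with old for diet, and old CR with young to place the restricted mice; the first pair of comparisons share the old arrays.

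Values are linear intensities in the arbitrary units of the deposited table, and can be compared between arrays for 1 probe set but not between probe sets. A probe set was called at an adjusted p under 0.05 in a limma fit to log2 intensity over all 22626 probe sets. In whole muscle, fewer cells of a type and less RNA per cell cannot be told apart. The 10 markers of fast fibers had no value below 11737 on any array and the 8 of slow fibers none below 1274, so muscle RNA was present throughout. Markers of slow fibers had sums of 73063 to 101406 in the old CR mice, 35047 to 72849 in the old mice and 30028 to 78667 in the young mice. The log2 difference between the 3′ and the 5′ control probe sets is a sign of RNA quality and of cDNA length, called cDNA length below. It is larger where less of the 5′ end is read. For Gapdh it was 0.25 ± 0.10 in the old mice, −0.21 ± 0.12 in the old CR mice and −0.04 ± 0.19 in the young mice (SD, n = 5). For Actb it was 0.01 ± 0.11, −0.38 ± 0.09 and −0.32 ± 0.09 in the same order. Old and old CR arrays did not overlap in either measure (two-sided exact permutation test, p = 0.00794, the smallest that 5 against 5 arrays can give, adjusted p = 0.0159 over 6 tests). Old and young arrays did not overlap for Actb (the same exact p of 0.00794, adjusted p = 0.0159) and overlapped for Gapdh, with a difference of 0.29 (exact permutation test, p = 0.0397, adjusted p = 0.0595). Young replicate 3, with 0.28 for Gapdh, lay within the range of the old arrays, and with −0.17 for Actb just below it.

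The old CR mice had higher levels of 11 member probe sets of 9 genes than the old mice, and none lower, at an adjusted p under 0.05. The genes are Mrpl2, Mrpl9, Mrpl11, Mrpl12, Mrpl15 and Mrpl49 of the large subunit and Mrps5, Mrps18c and Mrps23 of the small subunit, with log2 differences from 0.43 to 2.07. The 11 are 8.66% of the members, beside 2.7% of all probe sets called higher and 2.17% called lower. In 10 of the 11 every old CR array lay above every old array. Over all 127 members the old CR mean was above the old mean in 99 (78.0%, beside 55.3% of all probe sets), 18 had no overlap with old CR higher (14.2%, beside 4.86%), and none had no overlap with old CR lower (beside 4.04%). The median log2 difference of the members was 0.21, beside 0.06 for all probe sets.

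**Figure D1:**
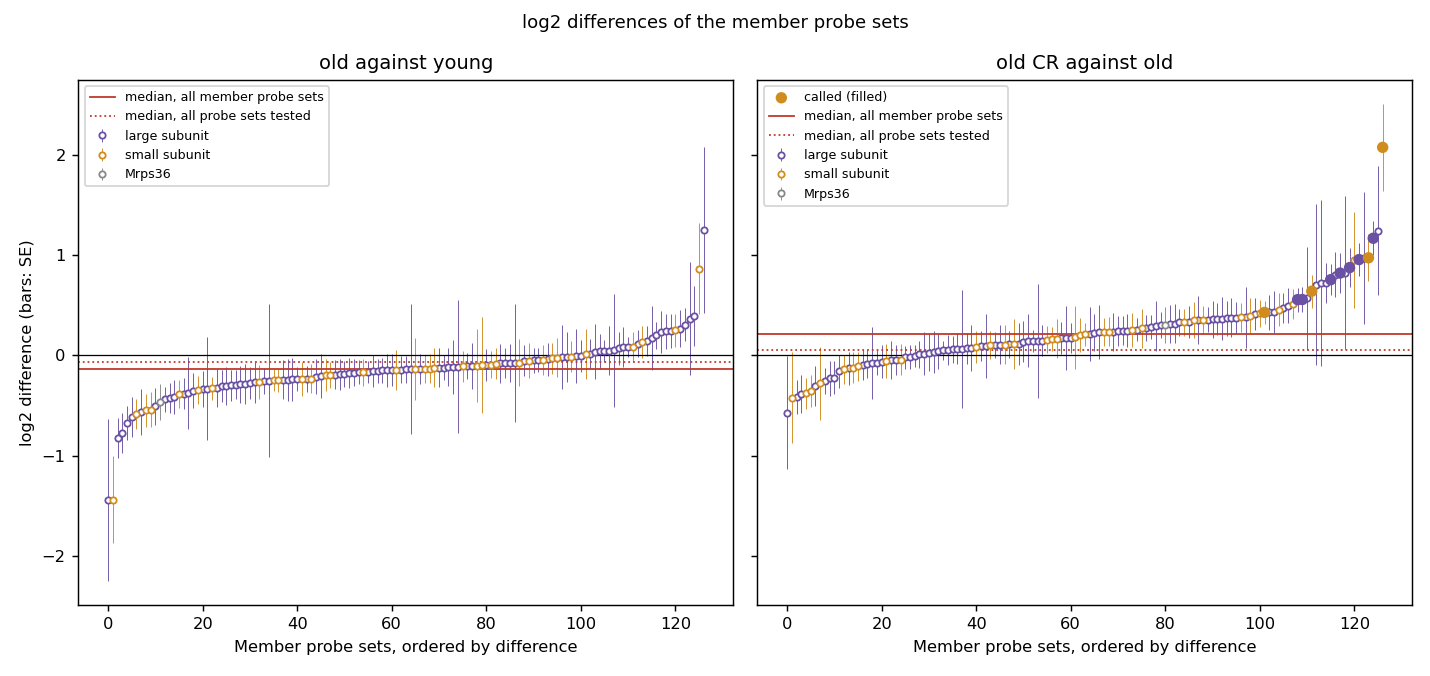
log2 difference (vertical axis) of each of the 127 member probe sets, ordered along the horizontal axis, for old against young (left) and old CR against old (right). Bars are SE, filled points are called, and red lines mark the median of the members (solid) and of all probe sets (dotted): −0.14 and −0.06 on the left, 0.21 and 0.06 on the right, with 11 filled points on the right and none on the left.

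The number of calls differed when single arrays were left out and when cDNA length was a covariate. Without 1 old array it was 7, 5, 4, 7 and 6 (replicates 1 to 5 left out in turn), beside 1.94%, 1.19%, 1.26%, 1.81% and 1.55% of all probe sets called higher. Without 1 old CR array it was 6, 7, 7, 7 and 7 (replicates 2, 3, 5, 6 and 7), beside 1.98%, 1.72%, 1.41%, 1.42% and 1.28%. These 4 to 7 members are 3.15% to 5.51% of the 127. When cDNA length, read as the average of both 3′ minus 5′ differences, entered the fit as a covariate, none of the 22626 probe sets was called by limma. At an unadjusted p under 0.05 there were 1461 of the 22626 in either direction. Among them were 8 of the 127 members, all with old CR higher, a share near that of all probe sets. Without the covariate these numbers were 4950 (21.9%) and 35 members (27.6%). With it, 10 of the 11 were still higher in old CR. The median log2 difference of the 11 went from 0.82 to 0.45 and their median SE from 0.17 to 0.33. In the fit with the covariate the median log2 difference of the 127 members was 0.20 (0.21 without it), beside 0.07 for all probe sets. The members higher in old CR were 78.7% (78.0% without it). Old and old CR arrays did not overlap in this covariate, so the fit cannot tell diet apart from cDNA length or RNA quality. With each array centred on its median, 6 members were called higher (4.72%, beside 1.86% of all probe sets) and none lower (beside 3.04%). Among the 11313 brightest probe sets alone, of which 106 are members of all 74 genes, 14 members were called higher (13.2%, beside 7.63%).

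Promoters were available for 8 of the 9 genes called (RefSeq, build GRCm38.p6), and those that hold a searched motif are shown. Each runs from 250 bases before the start site to 30 after it, 5′ to 3′, with the motif in capitals. The motif of NRF-1 (GCGC, A, any base, GCGC, on either strand) and that of GABP (CCGGAAGT or ACTTCCGG) belong to factors known for nuclear genes of mitochondrial proteins, YY1 (AANATGGC or GCCATNTT) is a motif often found at start sites, and the E-box (CACGTG) binds basic helix-loop-helix factors. Mrpl12 and Mrpl9 hold the NRF-1 motif, 81 and 28 bases before the start.
Mrpl12, chr11:120484387-120484666, plus strand: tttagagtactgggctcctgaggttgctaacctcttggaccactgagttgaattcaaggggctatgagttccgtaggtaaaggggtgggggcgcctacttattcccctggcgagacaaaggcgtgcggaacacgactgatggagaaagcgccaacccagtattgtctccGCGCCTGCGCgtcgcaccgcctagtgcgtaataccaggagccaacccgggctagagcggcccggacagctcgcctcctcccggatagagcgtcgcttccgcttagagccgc
Mrpl9, chr3:94443086-94443365, plus strand: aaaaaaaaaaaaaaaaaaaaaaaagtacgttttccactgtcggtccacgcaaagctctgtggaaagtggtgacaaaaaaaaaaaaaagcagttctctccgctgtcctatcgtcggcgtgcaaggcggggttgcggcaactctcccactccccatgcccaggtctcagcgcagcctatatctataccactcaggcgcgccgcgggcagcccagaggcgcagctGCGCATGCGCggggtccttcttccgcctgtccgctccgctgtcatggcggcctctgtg
Mrpl11 and Mrpl49 hold the YY1 motif, 21 and 17 bases after the start.
Mrpl11, chr19:4962056-4962335, plus strand: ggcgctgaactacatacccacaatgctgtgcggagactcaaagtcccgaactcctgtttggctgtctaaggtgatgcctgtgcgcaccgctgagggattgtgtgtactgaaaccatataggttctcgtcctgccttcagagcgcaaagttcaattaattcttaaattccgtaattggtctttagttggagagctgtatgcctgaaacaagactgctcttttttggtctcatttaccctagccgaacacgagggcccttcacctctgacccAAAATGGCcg
Mrpl49, chr19:6057726-6058005, minus strand: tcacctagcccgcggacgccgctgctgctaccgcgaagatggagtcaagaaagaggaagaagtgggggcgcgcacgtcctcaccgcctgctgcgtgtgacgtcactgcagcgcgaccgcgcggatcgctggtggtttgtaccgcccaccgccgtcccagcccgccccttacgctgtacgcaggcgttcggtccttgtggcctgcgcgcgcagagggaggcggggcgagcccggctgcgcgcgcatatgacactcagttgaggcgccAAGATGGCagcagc
Mrps18c holds an E-box 163 bases before the start, directly followed by a GABP motif at 157 bases before it. Mrpl2, with 3 listed start sites, holds an E-box 131 bases before the first of them.
Mrps18c, chr5:100798509-100798788, plus strand: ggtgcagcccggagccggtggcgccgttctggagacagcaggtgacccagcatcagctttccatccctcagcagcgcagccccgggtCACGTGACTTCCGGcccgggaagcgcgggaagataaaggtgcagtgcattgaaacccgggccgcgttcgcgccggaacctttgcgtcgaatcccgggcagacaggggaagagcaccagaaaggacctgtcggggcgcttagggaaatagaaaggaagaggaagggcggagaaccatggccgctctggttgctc
Mrpl2, chr17:46645971-46646250, plus strand: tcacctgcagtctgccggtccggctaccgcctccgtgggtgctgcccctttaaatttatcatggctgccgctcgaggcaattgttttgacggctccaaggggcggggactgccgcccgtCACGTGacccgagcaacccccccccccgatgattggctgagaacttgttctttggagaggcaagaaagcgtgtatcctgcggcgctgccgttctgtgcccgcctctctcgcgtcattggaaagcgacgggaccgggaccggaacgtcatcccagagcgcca
The promoters of Mrps5 and Mrps23 held none of these letters in the window of 300 bases searched. Among the 71 promoters of 65 member genes, 28.2% held the YY1 motif (7.02% of 12559 promoters of genes on the array), 16.9% the NRF-1 motif (7.96%), 15.5% the GABP motif (6.31%), 9.86% the E-box (9.11%) and none the estrogen-related receptor motif TCAAGGTCA or its reverse complement (0.287%). Median GC content was 58.7% in the member promoters and 59% in those of the array. In the 10 promoters of the 8 called genes the shares were 20% (YY1), 20% (NRF-1), 10% (GABP) and 40% (E-box). Those with the E-box belong to Mrpl2 and to Mrps18c. The promoters of the 3 listed start sites of Mrpl2 overlap and hold the same E-box, which is counted for each of them. The shares are a description, and a match is not evidence of binding.

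Mrpl12, a protein of the factor-binding stalk that has also been linked to mitochondrial transcription, had the smallest p of the members. It read 944, 1509.7, 936, 1307 and 1140.2 in the young, 852, 870.2, 1055, 719 and 827 in the old and 2615, 1828, 1716, 1695 and 1919 in the old CR mice. All 5 old CR values were above all 10 others. The mean was 865 ± 122 (SD, n = 5) in old and 1955 ± 380.3 (SD, n = 5) in old CR, 2.25-fold higher, or 1.17 on the log2 scale (SE 0.17, adjusted p = 0.00567). It was called without any 1 of the 15 arrays, with adjusted p-values of 0.00142 to 0.0184.

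Mrpl11, which forms the base of the stalk, is read by 4 probe sets, and 2 of them were called. The brightest read 1995, 1620.5, 1041, 2229.9 and 2363 in the young, 979.9, 1014, 958, 1015 and 1267 in the old and 1806, 2311, 1695, 1829 and 1968 in the old CR mice. The old arrays lay below all old CR arrays and below the young arrays other than replicate 3, which they reached. This probe set was higher in old CR by 0.88 on the log2 scale (SE 0.20, adjusted p = 0.0266). The second probe set called read 452, 628, 529, 474 and 497 in the young, 404, 369.6, 343, 399 and 462 in the old and 827, 665, 509, 591 and 783 in the old CR mice. Old CR was again above old on every array, here by 0.76 on the log2 scale (SE 0.15, adjusted p = 0.0168). Another differed by 0.80 on the log2 scale (SE 0.23, adjusted p = 0.0566) with no overlap, and the last, at 25.1 in old and 40.0 in old CR, by 0.71 on the log2 scale (SE 0.81, adjusted p = 0.655). The second probe set called and the one with adjusted p = 0.0566 are of the kind marked x, whose probes can match other transcripts. Mrpl10, the protein that anchors Mrpl12, was not called: its brightest probe set read 1009.6 to 1159 in old and 883 to 1295 in old CR, a difference of -0.09 on the log2 scale (SE 0.14, adjusted p = 0.766).

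Among the proteins of the large subunit with a bacterial counterpart, Mrpl2, a core protein near the peptidyl transferase centre, was higher in old CR than in old on every array. It read 2207, 2385, 1759.8, 2663 and 2253 in the young, 1716, 1694, 1689.5, 1529 and 1627 in the old and 2904, 2553, 2309, 2199.5 and 2239.9 in the old CR mice. The difference was 0.56 on the log2 scale (SE 0.13, adjusted p = 0.027), with the old values in a narrow range below all 10 others. Mrpl15, another core protein, read 1355, 1491, 1444, 1687 and 1691 in the young, 1179.6, 1405, 1315, 1358 and 1564 in the old and 2277, 1733, 2126, 1937 and 1959.6 in the old CR mice. Old CR exceeded both other groups on every array and differed from old by 0.56 on the log2 scale (SE 0.12, adjusted p = 0.0214). The other 3 Mrpl15 probe sets among the 11313 brightest differed by 0.15 to 0.28 and were not called. One of the probe sets of Mrpl9, a protein at the surface of the large subunit, read 779, 895, 441, 998 and 805 in the young, 373, 402, 418, 471 and 482 in the old and 1045, 693, 682, 684 and 724 in the old CR mice. The 5 old values and young replicate 3 lay below the rest. Old CR was higher than old by 0.82 on the log2 scale (SE 0.20, adjusted p = 0.0361), and with the 3′ minus 5′ covariate this difference was −0.02. The other Mrpl9 probe set, which is brighter, differed by 0.37 (SE 0.22, adjusted p = 0.347) with overlap and was not called.

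Mrpl49 is a protein of the large subunit with no bacterial counterpart. The probe set called read 604, 429, 317, 572 and 415 in the young, 252, 286, 282, 271 and 339.6 in the old and 593, 603, 543, 491 and 539.8 in the old CR mice. Old CR was 1.94-fold higher than old with no overlap, 0.96 on the log2 scale (SE 0.17, adjusted p = 0.0108). The other Mrpl49 probe set read 346, 401, 430.3, 328 and 355 in old and 535, 327, 495, 546 and 529 in old CR, with old CR replicate 3 below every old array and the other 4 above them. It differed by 0.37 on the log2 scale (SE 0.17, adjusted p = 0.224).

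In the small subunit, Mrps5 is a core protein of the path by which the message enters, and both of its probe sets were called. The dimmer, which is not among the 11313 brightest, read 215, 189.9, 112, 217 and 161 in the young, 98.6, 101, 45.2, 133 and 18.5 in the old and 347, 201, 346, 252 and 239.9 in the old CR mice. It had the largest log2 difference of the members, 2.07 on the log2 scale (SE 0.44, adjusted p = 0.0203), with every old value below every old CR value. On a scale of log2(intensity + 50), which shrinks dim differences, this was 1.40. The brighter read 479.5, 525, 695, 609 and 530.2 in the young, 460.4, 555, 487, 504 and 456 in the old and 1025, 553, 682, 874 and 779 in the old CR mice. Here old and old CR overlapped by 1 array each, with the difference at 0.64 on the log2 scale (SE 0.16, adjusted p = 0.0397). Mrps18c, the counterpart of bacterial S18, read 709, 458, 704, 324 and 739 in the young, 595, 632, 557, 482 and 421 in the old and 1509, 901, 907, 1019 and 989 in the old CR mice. Old CR was above all 10 other arrays and exceeded old by 0.97 on the log2 scale (SE 0.23, adjusted p = 0.0331). Mrps23 has no bacterial counterpart. It read 2084, 2185, 2088, 2067 and 2194 in the young, 1691, 1794, 1776, 1463 and 1758 in the old and 2875, 2160.4, 2185, 2204 and 2047 in the old CR mice. The 5 old values lay below both other groups, and old CR exceeded old by 0.43 on the log2 scale (SE 0.11, adjusted p = 0.0463). The other Mrps23 probe set differed by 0.35 on the log2 scale and was not called.

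Calls held to different degrees when 1 of the 15 arrays was left out. Mrpl12, Mrpl49, the dimmer Mrps5 probe set and the second Mrpl11 probe set were called without any of them. Mrpl15 was called in 14 of the 15 fits, the brightest Mrpl11 probe set in 10, Mrpl2 in 9, Mrps18c in 7, Mrpl9 in 5, the brighter Mrps5 probe set in 4 and Mrps23 in 1. The log2 difference stayed above 0 in all of these fits.

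**Figure D2:**
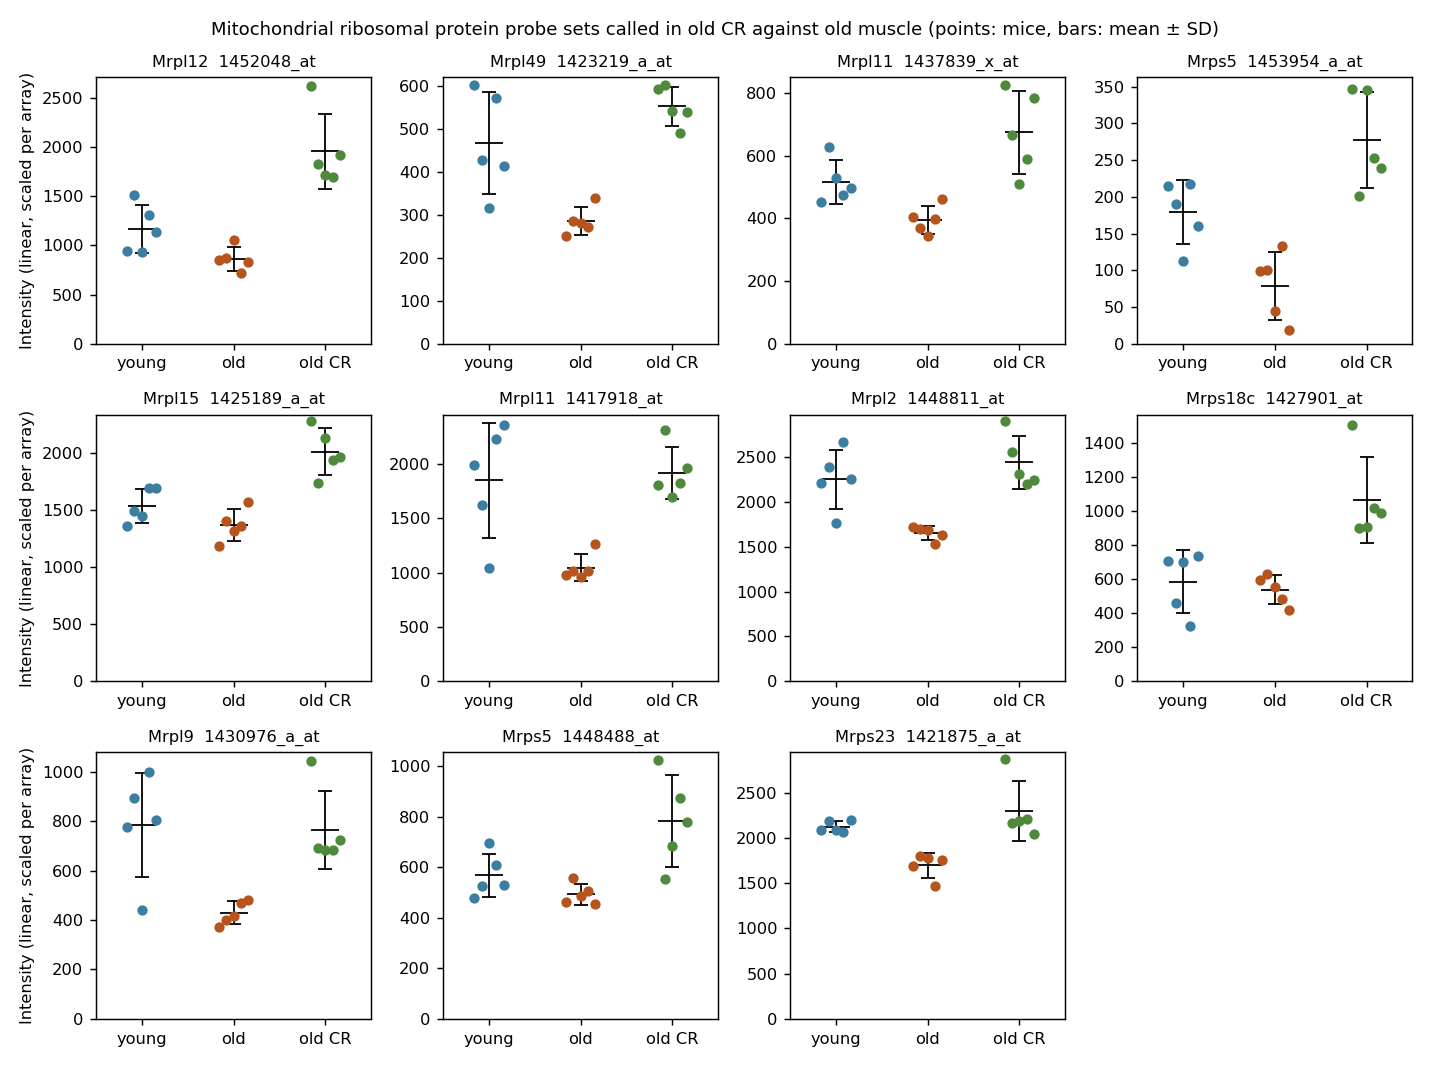
Linear intensity (vertical axis, from 0) of the 11 probe sets called in old CR against old, each mouse a point and the bar the mean ± SD of 5 mice, in young, old and old CR muscle. Old CR and old overlap only in the brighter Mrps5 probe set, and old CR replicate 2, the leftmost green point, is the highest old CR value in 9 of the 11, all but the brightest Mrpl11 probe set and Mrpl49.

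The other 116 member probe sets were not called. Mrps30, a large subunit protein despite its name, had the lowest log2 difference among the members of the 11313 brightest. It read 707, 967, 783, 854 and 652 in the young, 672, 799, 1046, 1223 and 1017 in the old and 725, 718, 736, 582 and 744 in the old CR mice. The difference was -0.41 on the log2 scale (SE 0.17, adjusted p = 0.166), with old replicate 1 within the old CR range. Mrps15, the counterpart of bacterial S15, was lower in mean in old CR in both of its probe sets, at 1243, 1151, 1121, 1347 and 1194 against 1646, 1597, 1141, 2193 and 1452 in old for the brighter one. The differences were -0.38 on the log2 scale (SE 0.15, adjusted p = 0.166) and -0.35 on the log2 scale (SE 0.16, adjusted p = 0.201). These were the only 3 members with old CR lower at an unadjusted p under 0.05, 2.36% of the members beside 9.33% of all probe sets. With old CR higher there were 32 (25.2%, beside 12.5%).

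The brightest members were not called. Mrpl42 read 4268 to 7122 in young, 4077 to 5463 in old and 4771 to 5288 in old CR and differed between old CR and old by 0.01 on the log2 scale (SE 0.14, adjusted p = 0.975). Mrps14 read 2453 to 3714 in old and 2383 to 3595 in old CR, with a difference of -0.04 on the log2 scale (SE 0.16, adjusted p = 0.909). Mrpl51 and Mrpl23 differed by 0.36 (adjusted p = 0.119) and 0.26 (adjusted p = 0.218). Mrps12, the decoding centre protein, read 1180.4 to 1611 in old and 1302 to 1674 in old CR, 0.10 on the log2 scale (SE 0.14, adjusted p = 0.72). All of these groups overlapped.

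Between old and young mice none of the 127 members was called, beside 0.265% of all probe sets. The old mean was below the young mean in 101 members (79.5%, beside 57% of all probe sets), the median log2 difference was −0.14 (−0.06 for all), and 6 had no overlap with old lower (4.72%, beside 2%) against none with old higher (beside 1.61%). At an unadjusted p under 0.05, 19 members of 16 genes were lower in old (15.0%, beside 9.25%) and none higher (beside 6.24%). The largest log2 differences among the 11313 brightest were those of Mrpl9 (-0.82 on the log2 scale (SE 0.20, adjusted p = 0.0889)), Mrpl11 (-0.77 on the log2 scale (SE 0.20, adjusted p = 0.0981)), Mrpl49 (-0.68 on the log2 scale (SE 0.17, adjusted p = 0.0889)) and Mrps2, the counterpart of bacterial S2 (-0.58 on the log2 scale (SE 0.15, adjusted p = 0.101)). The 3′ minus 5′ difference of Actb also separated these groups, and with cDNA length as a covariate 3 members were lower in old at an unadjusted p under 0.05 (2.36%, beside 3.3% of all probe sets). Without young replicate 3, whose values in the first 3 were near those of old mice, 5 members were called lower (3.94%, beside 3.24% of all probe sets, a share near that of the array). Among the 11313 brightest alone 5 of 106 members were also called lower (4.72%, beside 2.96%). With array medians centred, the median of the members was −0.05.

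Mrps2 read 305, 393, 260.3, 387 and 314 in the young, 209.7, 177, 252, 236 and 229 in the old and 271, 333, 311, 279.7 and 379 in the old CR mice. No old value reached the lowest young value. The dimmer Mrps5 probe set differed by -1.44 on the log2 scale (SE 0.44, adjusted p = 0.136) with 1 old array, replicate 4, above the lowest young value. The study, with its own values and test, lists this probe set as lower in old muscle, with a smaller change. On the other side Mrpl44, an RNase III-like protein of the large subunit, read 732, 1286, 1350.4, 941 and 824 in young and 1289, 1216, 1347, 1172 and 1155 in old, 0.31 on the log2 scale (SE 0.17, adjusted p = 0.393). Mrpl48, Mrps24 and Mrps30 followed with 0.27, 0.25 and 0.25, and adjusted p-values of 0.517, 0.499 and 0.507. All 4 overlapped between the groups.

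Old CR and young mice differed in no member at an adjusted p under 0.05, beside 0.0884% of all probe sets. The median log2 difference was 0.07 (−0.01 for all probe sets), with 76 of the 127 members higher in old CR (59.8%, beside 49.2%). Among the 11313 brightest 2 of 106 members were called higher (1.89%, beside 0.787%). In Mrpl12, Mrpl15 and Mrps18c every old CR array exceeded every young array (2.36% of members, beside 1.68%), with differences of 0.75, 0.39 and 0.90 and adjusted p-values of 0.108, 0.212 and 0.149. In the brighter Mrps15 probe set every old CR array lay below every young one (0.787% of members, beside 1.89%), -0.41 on the log2 scale (SE 0.15, adjusted p = 0.299). Mrpl9 read 784 ± 209.8 (SD, n = 5) in young and 766 ± 157 (SD, n = 5) in old CR, with an adjusted p of 0.997. At an unadjusted p under 0.05, 8 members were higher in old CR than in young (6.30%, beside 5.83% of all probe sets) and 5 lower (3.94%, beside 6.26%).

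Probe sets of the same gene did not always move together. Of 23 genes with more than 1 probe set among the 11313 brightest, 6 had probe sets more than 0.5 apart on the log2 scale in one of the comparisons of old with young or old CR with old. In Mrps2 one probe set differed between old CR and old by 0.51 (SE 0.15) and the other by -0.11 (SE 0.15), and between old and young by -0.58 and 0.09. In Mrpl44 one of 3 differed between old CR and old by 0.36 and the others by -0.22 and -0.25, and in Mrpl19 the pair stood at 0.12 and -0.38. Mrpl49 and Mrpl9 had probe sets of the same sign and unlike size, 0.96 and 0.37 for the first in old CR against old, and -0.82 and -0.24 for the second in old against young. The 4 probe sets of Mrps9 ranged from −0.54 to 0.01 between old and young. The 3 brighter probe sets of Mrpl11, at 0.76 to 0.88, and of Mrpl13, at 0.25 to 0.36, lay close together. Of the 127 member probe sets 18 are of a kind (x or s) that can read more than 1 transcript.

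**Figure D3:**
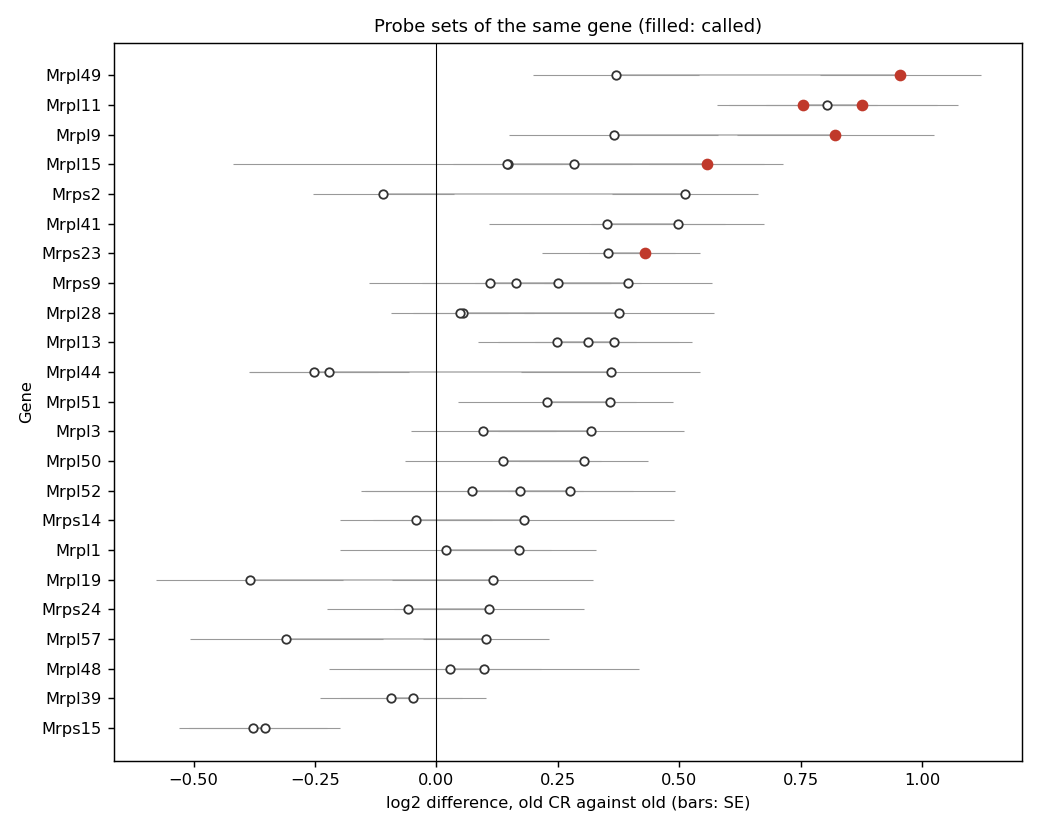
log2 difference of old CR against old (horizontal axis, bars SE) for each probe set of the 23 member genes (vertical axis) with more than 1 probe set among the 11313 brightest, filled where called. Mrpl11 lies at 0.76 to 0.88 in all 3, whereas Mrps2, Mrpl44 and Mrpl19 have probe sets on both sides of 0.

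Both subunits had medians of the same sign when each gene was read by its brightest probe set. The median log2 difference between old CR and old was 0.11 for the 49 large subunit genes and 0.21 for the 24 small subunit genes, with 34 and 19 genes higher and 3 called higher in each. These 6 are 8.11% of the 74 genes, beside 2.15% of 12393 genes called higher. Between old and young it was −0.15 and −0.13, with 37 and 21 genes lower. The 43 genes with a bacterial counterpart had medians of −0.15 (old against young) and 0.15 (old CR against old), and the 30 genes particular to mitochondria −0.13 and 0.15; the corresponding medians over 12393 genes were −0.05 and 0.02. No difference between these groups of genes was tested. Mrps36, now regarded as a protein of the oxoglutarate dehydrogenase complex, stood at −0.47 (adjusted p = 0.238) and 0.30 (adjusted p = 0.357).

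On single arrays, the median over the 74 genes of the log2 deviation from the mean of the 15 arrays was −0.02 to 0.12 in young, −0.19 to −0.06 in old and −0.05 to 0.30 in old CR mice. The old arrays lay below all young arrays, and old CR replicate 3, at −0.05, lay just above the highest old array. Old CR replicate 2 stood apart at 0.30, with 0.07 as the next value. The same array was highest for the nuclear subunits of oxidative phosphorylation, at 0.27, but not for the cytosolic ribosomal proteins, at 0.06 within a range of 0.03 to 0.14 in old CR. Over all probe sets the arrays ranged from −0.08 (old replicate 2) to 0.12 (young replicate 2), and the medians above were not corrected for this. In old replicates 2 and 3 the members, at −0.07 and −0.06, stood near all probe sets, at −0.08 and −0.06. In young replicates 1 and 2 the members, at −0.02 and 0.04, stood below all probe sets, at 0.04 and 0.12. The separation of old from young arrays thus depends on how arrays are scaled.

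**Figure D4:**
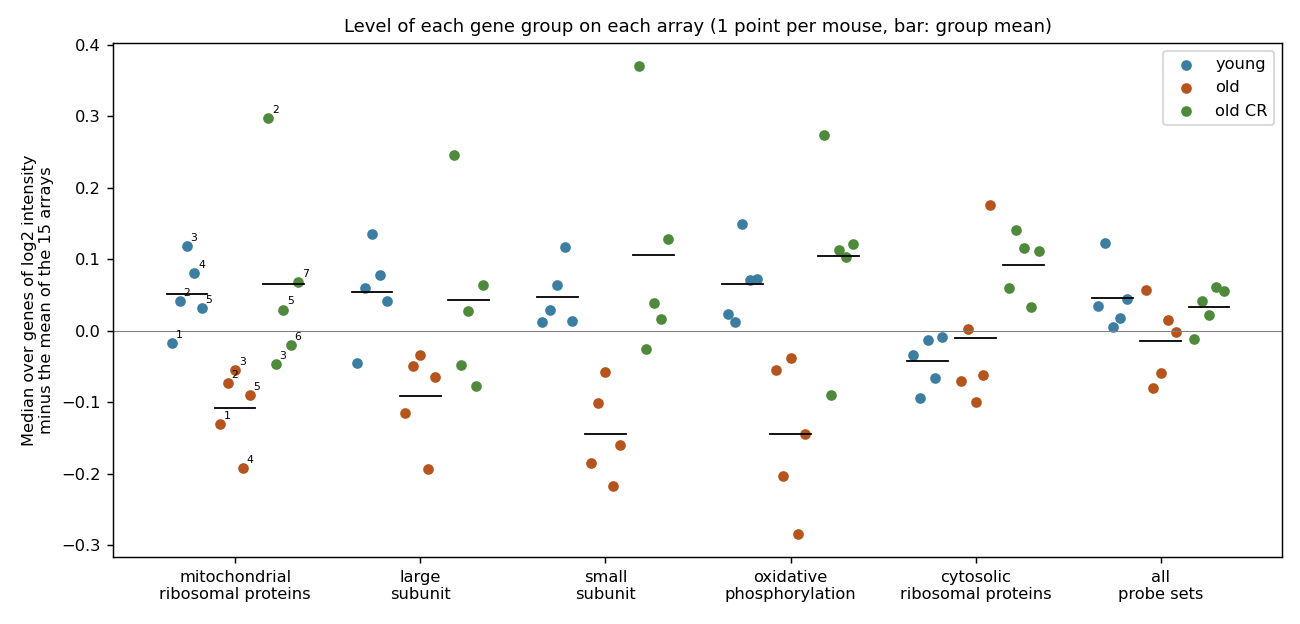
Median over the genes of a group of log2 intensity minus the mean of the 15 arrays (vertical axis), for each mouse (point, with its replicate number for the mitochondrial ribosomal proteins), with bars at group means. The 5 old mice lie at −0.19 to −0.06 for the mitochondrial ribosomal proteins and old CR replicate 2 lies at 0.30.

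The genes that work with the mitoribosome were taken from lists, each gene by its brightest probe set. Of the 10 mitochondrial translation factors measured (18 listed, among them Mrpl58, a member) none was called, with medians of −0.31 in old against young and 0.30 in old CR against old; 8 were lower in old and 8 higher in old CR. Tufm, the elongation factor that brings aminoacyl-tRNA, differed between old CR and old by 0.63 (SE 0.18, adjusted p = 0.058), and Gfm2, the recycling factor, by 0.64 (SE 0.22, adjusted p = 0.109). Of 13 mitochondrial aminoacyl-tRNA synthetases and amidotransferase subunits measured (22 listed) none was called, with medians of −0.20 and 0.17, and Sars2, which charges serine tRNA, stood at 0.70 (SE 0.20, adjusted p = 0.0582) in old CR against old. Of 21 assembly factors and subunits under other names (29 listed) none was called, with medians of −0.15 and 0.08. The GTPase Mtg2 differed between old CR and old by 0.38 (SE 0.11, adjusted p = 0.0678), and the small subunit proteins Chchd1 and Dap3 by 0.48 (SE 0.15, adjusted p = 0.0773) and 0.45 (SE 0.14, adjusted p = 0.0866).

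Lists of mitochondrial DNA upkeep, biogenesis and mass had medians between −0.13 and 0.07. The 16 genes of mitochondrial DNA replication and transcription (19 listed) had medians of 0.02 and 0.07 with none called; Polrmt, the mitochondrial RNA polymerase, stood at -0.43 (SE 0.13, adjusted p = 0.0791) in old CR against old and Polg, the DNA polymerase, at 0.40 (SE 0.13, adjusted p = 0.0874). Of 13 regulators of mitochondrial biogenesis (15 listed, medians −0.03 and −0.13) 1 was called higher in old CR than in old, beside 2.15% of 12393 genes. This was Ppard, a nuclear receptor of fatty acid oxidation, at 0.55 (SE 0.15, adjusted p = 0.0463). Ppargc1a, the coactivator that drives mitochondrial biogenesis in muscle, differed by 0.92 (SE 0.33, adjusted p = 0.116), its relative Ppargc1b by -1.86 (SE 0.51, adjusted p = 0.051) and the transcription factor Yy1 by -0.49 (SE 0.13, adjusted p = 0.0512). The 12 markers of mitochondrial mass (13 listed), such as the import receptor Tomm20, had medians of 0.01 and −0.05 with none called.

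The products of mitochondrial translation join nuclear-encoded subunits in the oxidative phosphorylation complexes. Of 78 such subunits measured 9 were called higher in old CR than in old (beside 2.15% of 12393 genes) and none lower. The median was 0.23 and 69 were higher. Between old and young none was called, the median was −0.19 and 70 were lower. Ndufv1, the NADH-binding subunit of complex I, rose by 0.88 (SE 0.17, adjusted p = 0.0146), Atp5e, a subunit of ATP synthase, by 0.80 (SE 0.13, adjusted p = 0.00915), Uqcrh of complex III by 0.62 (SE 0.13, adjusted p = 0.0177) and Cox8b of cytochrome c oxidase by 0.59 (SE 0.12, adjusted p = 0.0157). The 49 cytosolic ribosomal protein genes were chosen by symbol, which takes in ribosomal protein-like genes. Of these 2 were called higher in old CR than in old (beside the same 2.15%), with a median of 0.12. In old against young 1 was called lower (beside 0.0888% of 12393 genes), with a median of 0.03. The 2 were Rpl3l, a muscle form of Rpl3 (4477 ± 358 in old and 9042 ± 1718 in old CR (SD, n = 5), adjusted p = 0.00791), and Rpl7l1, an Rpl7-like protein (0.93 (SE 0.14, adjusted p = 0.0057)), which was the one lower in old than in young (-0.76 (SE 0.14, adjusted p = 0.0455)). Differences between lists were not tested.

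**Figure D5:**
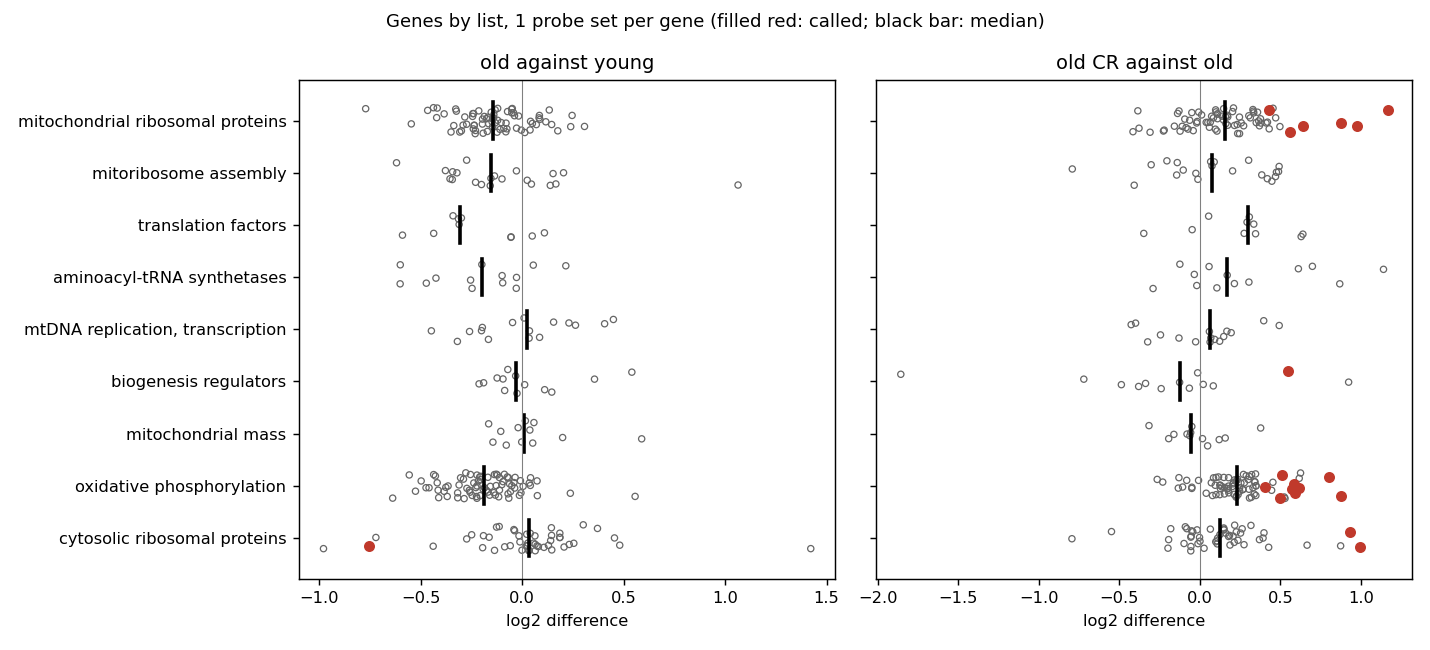
log2 difference (horizontal axis) of each gene by its brightest probe set, for the mitochondrial ribosomal proteins and the other lists (rows), in old against young (left) and old CR against old (right), with called genes filled and the median as a black bar. The medians of the mitochondrial ribosomal proteins were −0.14 and 0.15, those of oxidative phosphorylation −0.19 and 0.23 and those of mitochondrial mass 0.01 and −0.05.

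Markers of muscle fiber types moved with the same groups, and their part in these results was not tested. All 10 fast fiber markers were lower in mean in old than in young and higher in old CR than in old (medians −0.17 and 0.31), with 1 called, Myh1 (the fast IIx myosin) at 0.52 (SE 0.12, adjusted p = 0.0297) in old CR against old. All 8 slow fiber markers were higher in mean in old CR than in old (median 0.73), with Tnnc1, slow troponin C, called at 1.45 (SE 0.33, adjusted p = 0.027). Of the other cell type markers, Vwf (endothelium) was lower in old CR than in old, -1.02 (SE 0.21, adjusted p = 0.018), and no marker of adipocytes, macrophages, B cells, Schwann cells, tendon, red blood cells or skin was called in old CR against old. Some of these lists had medians away from 0 all the same. In old CR against old the 4 adipocyte markers stood at −0.55 (2 higher, 2 lower) and the 6 macrophage markers at −0.24 (2 higher, 4 lower). The 5 markers of B cells and plasma cells stood at −0.16 (2 higher, 3 lower). Over all the comparisons, tendon and skin had the farthest medians among the lists with more than 2 markers measured. The 7 tendon and fibroblast markers stood at −1.11 in old against young (6 lower, none called), −0.10 in old CR against old and −0.99 in old CR against young (7 lower, with Col1a2, a chain of type I collagen, called), and their sums were 23702 to 37037 in young, 17823 to 28268 in old and 15028 to 20586 in old CR mice. The 5 skin and hair markers stood at 0.91, −1.70 and −0.70 in the same order, with sums of 587 to 2994 in young, 875 to 10536 in old and 607 to 1012 in old CR mice. Their part in the results of the mitochondrial ribosomal proteins was not tested.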

How the data were processed

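RNA of 15 gastrocnemius muscles was measured on MOE430A arrays (1 per mouse, 5 per group). The table deposited by the authors gives linear intensity, 1 value for each probe set on each array, from averaged scans. After 2% of values are trimmed at each end, every array averages 500.0, so arrays were scaled singly. By the study's methods, the authors' own tests used RMA values and a Bayesian mixture, and MAS5 gave the detection calls by which probe sets absent on every array were dropped. Neither was used here. Which method summarised the deposited table is not given in the sources used here. The log2 of each intensity was taken without a pseudocount, and 64 controls were excluded. All 22626 others, with no filter on low values, were analysed in R 4.3.3 by limma 3.58.1 (3 groups in 1 fit, eBayes without a trend, prior df 2.17), p-values were adjusted by Benjamini-Hochberg over all of them, with a call at an adjusted p below 0.05. The 11313 brightest probe sets are those with the highest mean log2 intensity. Python 3.11.15 was used for tables and figures (pandas 2.3.3, NumPy 2.4.6, Matplotlib 3.10.9, SciPy 1.17.1).

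Symbols came from the platform annotation (1 symbol for 20380 probe sets, several for 691, none for 1555), and 3 probe sets with several symbols, 1 of them a mitochondrial ribosomal protein, were left out. All 74 member genes matched RefSeq. The named members were the called probe sets with the smallest p (up to 12 per comparison), the 4 largest rises and falls among the 11313 brightest, the probe sets of Mrps5, the 4 brightest, genes whose probe sets differed by over 0.5, and the stalk and decoding proteins. Of each list, genes with the smallest p were named. A few further probe sets of the same genes, and Mrps36, were named after their values were seen. The members, lists and this rule were chosen with earlier results of these data known. The alternatives tried are given with their effects in the closing section. On simulated data for old against young with 22626 probe sets, 40% of 2-fold and 71% of 4-fold changes were called, and 65.2% and 100% of those among the 11313 brightest, where 106 of the 127 members lie. Precision is limited by the number of arrays. Arrays are 1 per animal, so p-values measure the spread between mice.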

Additional observations from a re-analysis of the deposited data

Results flagged for a closer look

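Of 120 groups of 5 arrays examined on the log2 scale (105 of them a named probe set in 1 group, and 15 a median over the members or a 3′ minus 5′ difference in 1 group), 8 held 1 value farther from the others than a Dixon test at the 95% level allows, and chance flags about 1 in 20 groups. Old CR replicate 2 was the high value in 4 of them. It read 1045 for Mrpl9 (the other old CR arrays 682 to 724), 2615 for Mrpl12 (1695 to 1918), 1508.5 for Mrps18c (901 to 1019) and 2875 for Mrps23 (2047 to 2204). Without this array the log2 differences between old CR and old of these probe sets remained above 0 and 6 members were called. Other values that stood apart were old replicate 5 for the brightest Mrpl11 probe set (1267, the others 958 to 1015), old CR replicate 6 for Mrps30 (582, the others 718 to 744), old CR replicate 3 for the other Mrpl49 probe set (327, the others 495 to 546) and young replicate 2 for the other Mrpl9 probe set (801, the others 1198 to 1347).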

How the results depend on the processing

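The alternatives were the 11313 brightest probe sets alone, centring of each array on its median, quantile normalization, a pseudocount of 50, a fit limited to the 2 groups compared, robust eBayes with a variance trend, weights for arrays, a replicate block, a covariate for the 3′ minus 5′ difference, an adjusted p under 0.10, the brightest probe set of each gene, and leaving out each array in turn. Where a value below differs from the one in the report, the cause was not tested. Calls of members higher in old CR than in old (11) numbered 14 among the brightest, 12 after quantile normalization, 13 with the pseudocount, 10 in the fit of 2 groups, 13 with the trend, 11 with weights, 16 at an adjusted p under 0.10, 6 after median centring, 0 with the block and 0 with the covariate, and 4 to 14 with 1 array left out. Over all probe sets, in either direction, 1102 were called in the fit of the report and 967 after quantile normalization. There were 1507 with the pseudocount, 1029 in the fit of 2 groups, 1666 with the trend, 1341 with weights and 4 with the block. The number over all probe sets at an adjusted p under 0.10 was not counted. The member counts thus moved together with those of the array. Same-numbered mice did not deviate together (correlations from −0.28 to 0.09), so the numbers were not taken as pairs. Calls of members lower in old than in young (0) numbered 5 among the brightest, 3 with the trend, 5 with weights, 3 at an adjusted p under 0.10, and 0 to 5 with 1 array left out (5 without young replicate 3). Over all probe sets, in either direction, this comparison had 60 calls in the fit of the report, 418 with the trend and 770 with weights. Calls higher in old CR than in young (0) numbered 2 among the brightest and 1 with the trend. The calls over all probe sets in either direction went from 20 to 151 with the trend. Over all probe sets, 55.5% of the calls between old CR and old were higher in old CR, and 37.9% after median centring; between old and young 45% were higher in old, and 72.7% after median centring.

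The median of the members between old and young was −0.050 after median centring and −0.20 with the covariate. In the same comparison median centring gave list medians of 0.12 (cytosolic ribosomal proteins), −0.099 (oxidative phosphorylation), −0.064 (assembly), 0.11 (mitochondrial DNA) and 0.097 (mass), the covariate gave −0.20 (translation factors), −0.068 (synthetases) and −0.11 (mass), and the brightest alone −0.097 (synthetases). Between old CR and old the cytosolic ribosomal proteins stood at 0.036 after median centring and 0.025 after quantile normalization, the biogenesis regulators at −0.29 among the brightest and −0.24 after quantile normalization, and the mass markers at −0.14 after median centring and 0.15 with the covariate. Between old CR and young the medians were 0.081 (cytosolic ribosomal proteins, quantile normalization), 0.17 (mitochondrial DNA, block) and −0.023 (biogenesis, block). With 1 array left out the medians between old and young ranged from −0.33 to −0.21 (translation factors), −0.28 to −0.073 (synthetases) and −0.038 to 0.042 (mitochondrial DNA), that of the biogenesis regulators between old CR and old from −0.27 to −0.012, and that of mitochondrial DNA between old CR and young from −0.071 to 0.098. The Gapdh 3′ minus 5′ difference between old and young ranged from 0.25 to 0.37 with 1 old or young array left out. Its exact permutation p, 0.0397 on all arrays, was 0.0159 without young replicate 3 and 0.0635 to 0.0794 without any other of these 10 arrays.

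Signs turned in single probe sets as follows. With the covariate the log2 difference between old and young was −0.21 for Mrpl48, −0.048 and −0.086 for the 2 Mrpl44 probe sets above 0, 0.040 for Mrpl15, 0.076 for Mrps14, −0.23 for the second Mrps2 and −0.26 for an Mrps9 probe set, between old CR and old it was −0.017 for Mrpl9, 0.26 and 0.14 for the same Mrpl44 probe sets, −0.28 for the second Mrpl49, 0.33 for the second Mrps2 and 0.19 for Mrpl10, and between old CR and young −0.12 for Mrpl11. Median centring gave 0.018 for Mrps18c and 0.068 for Mrps9 between old and young and −0.077 for Mrpl42 between old CR and old. Quantile normalization gave 0.039 for Mrps9, 0.00061 for Mrps14, −0.043 for Mrpl42 and 0.0090 for Mrpl9 (old CR against young), array weights 3.88e-05 for Mrps9 and −0.028 for Mrpl11 (old CR against young), and the block −0.048 for Mrpl42 and 0.13 for Mrpl9 (old CR against young). With 1 array left out the range crossed 0 for Mrpl11 (−0.088 to 0.21) and Mrpl9 (−0.20 to 0.097) in old CR against young, for Mrpl19 (−0.0013 to 0.22), Mrpl42 (−0.058 to 0.047) and Mrps14 (−0.14 to 0.054) in old CR against old, and for Mrps18c (−0.27 to 0.029) and 2 Mrps9 probe sets (−0.091 to 0.064 and −0.11 to 0.14) in old against young. Other signs held under every alternative run, in the comparisons in which each named probe set was checked. Old CR against young was checked only for the 11 probe sets called in old CR against old. Probe sets named after their values were seen were not checked. Differences of dim probe sets, such as the dimmer Mrps5, are limited by signal over background.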
